A study of Rattus norvegicus with 20 samples.

Results

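The endoplasmic reticulum chaperone set held 9 genes, Hspa5, Hsp90b1, Calr, Pdia3, Pdia4, Pdia6, Creld2, Manf and Edem1. Its members were the probe sets annotated to exactly 1 of these genes, which gave 10 probe sets of the 15866 on the array. All 10 passed the filter on dim signals, among 9520 probe sets tested. Pdia3 had 2 probe sets and each other gene had 1.

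Liver RNA came from male Wistar rats, an outbred laboratory strain, whose food was cut by 30%, 20%, 10% or 5% from 6 weeks of age, or was not restricted in the controls. The feeding lasted 1 month or 1 week, and all rats, the controls too, went without food for 16 h ahead of sampling. RNA of 5 rats was pooled for each of the 10 combinations of diet and duration, and each pool was read on 2 Affymetrix arrays, 20 in all. Ages in the labels are 9 weeks at 1 month and 6 weeks at 1 week, without saying whether at the start or at sampling. With 1 pool per combination, the p-values measure the scatter of pools around the fitted model and not the spread between rats.

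Proteins that enter the endoplasmic reticulum, the site where the liver makes its plasma proteins, are folded there by chaperones and by enzymes that form disulfide bonds. When unfolded proteins build up, the sensors IRE1, PERK and ATF6 start the unfolded protein response, which raises transcription of these folding genes. ATF6 acts with the factor NF-Y at the endoplasmic reticulum stress element (ERSE), known from mammalian promoters. Edem1 belongs to the disposal branch, which sends misfolded glycoproteins to degradation, and in mammalian cells it is a known target of IRE1 and XBP1.

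RefSeq promoters (build GRCr8) were at hand for 6 of the 9 genes, Hspa5, Hsp90b1, Calr, Pdia4, Creld2 and Edem1. Both strands of the 250 bases before each start were searched for ERSE, spelled CCAAT, then 9 bases of any kind, then CCACG. It was found in 4 of the 6 promoters, against 22 of all 33469 in the table (0.0657%). ERSE was known beforehand from promoters of endoplasmic reticulum folding genes, so these shares are a description and not a test. Hspa5 had 1 match at positions -43 to -25 from the start, and Hsp90b1 had 1 at -176 to -158 and 1, on the opposite strand, at -72 to -54. Calr had 1 match at -232 to -214 and Creld2 had 1 at -145 to -127, both on the opposite strand. Pdia4 and Edem1 had no match in this window. A second element, ERSE-II (ATTGG, any base, then CCACG), matched 0 of the 6 promoters and 0.0418% of all, and the element UPRE (TGACGTGG) matched 0 of the 6 and 0.52% of all. Only ERSE matched in these promoters as the elements are spelled here, so no match overlaps one of another element. Other spellings of these elements were not searched. A match is only a run of letters, and binding was not measured.

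Each match is written as read on its own strand, with the fixed letters of ERSE in capitals, so that the differing spacer bases can be compared.
Hspa5 (chr3:38452973-38452991): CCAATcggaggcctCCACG
Hsp90b1 (chr7:23012451-23012469): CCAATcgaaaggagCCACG
Hsp90b1 (chr7:23012347-23012365): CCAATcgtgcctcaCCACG
Calr (chr19:40213135-40213153): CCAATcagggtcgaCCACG
Creld2 (chr7:121789239-121789257): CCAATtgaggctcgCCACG

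The whole windows are given for 4 genes whose levels the results turn on: Hspa5 and Creld2, which fell with restriction, Hsp90b1, which has 2 matches and did not pass the test, and Edem1, which has none and rose. Each reads 5′ to 3′ on the gene's strand up to the base before the start, with ERSE matches of either strand in capitals.
Hspa5 (chr3:38452766-38453015, plus strand): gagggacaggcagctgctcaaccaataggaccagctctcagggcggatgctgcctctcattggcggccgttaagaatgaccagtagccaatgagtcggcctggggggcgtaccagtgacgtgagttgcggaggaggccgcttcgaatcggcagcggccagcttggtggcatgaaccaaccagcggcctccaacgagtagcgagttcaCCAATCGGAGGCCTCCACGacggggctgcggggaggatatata
Creld2 (chr7:121789134-121789383, plus strand): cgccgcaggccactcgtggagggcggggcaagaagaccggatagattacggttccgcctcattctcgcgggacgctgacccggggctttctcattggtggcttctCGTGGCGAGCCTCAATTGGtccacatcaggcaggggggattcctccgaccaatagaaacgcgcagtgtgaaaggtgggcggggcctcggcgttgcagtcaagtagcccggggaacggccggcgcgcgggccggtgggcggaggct
Hsp90b1 (chr7:23012294-23012543, minus strand): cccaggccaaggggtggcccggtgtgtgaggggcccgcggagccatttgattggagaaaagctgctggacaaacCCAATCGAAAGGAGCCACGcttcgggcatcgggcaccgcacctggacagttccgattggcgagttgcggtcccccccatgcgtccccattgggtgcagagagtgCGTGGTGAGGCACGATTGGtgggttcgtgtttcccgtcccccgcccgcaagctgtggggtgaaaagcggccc
Edem1 (chr4:143353425-143353674, plus strand): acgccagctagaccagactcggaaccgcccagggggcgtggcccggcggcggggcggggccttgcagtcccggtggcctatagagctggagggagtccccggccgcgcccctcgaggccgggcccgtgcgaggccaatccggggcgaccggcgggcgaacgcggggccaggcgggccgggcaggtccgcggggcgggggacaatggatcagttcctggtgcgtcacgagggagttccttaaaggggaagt

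Across 0, 5, 10, 20 and 30% restriction, 5 of the 10 probe sets fell (Hspa5, Calr, Pdia6, Creld2 and Manf), 1 rose (Edem1) and 4 did not pass the test (Hsp90b1, Pdia4 and both of Pdia3). The falls over the 30 percentage points, fitted over both durations, ran between 1.26-fold for Pdia6 and 1.73-fold for Creld2, and Edem1 rose 1.64-fold. Of all 9520 probe sets tested, 3.76% passed in this dose trend, 1.96% lower and 1.8% higher. The median log2 change of the 10 probe sets was -0.35, against 0.00339 for all probe sets. In pooled tissue, fewer cells of a type and less RNA per cell cannot be told apart.

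Values below are normalized signals in array units, the geometric mean of the 2 arrays of a pool after quantile normalization. Each series runs from 0 to 5, 10, 20 and 30% restriction. A change per dose trend is the fitted log2 change over 30 percentage points, with its standard error (SE) over 10 pools and limma's p-value after Benjamini-Hochberg adjustment over all 9520 probe sets.

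**Figure D1:**
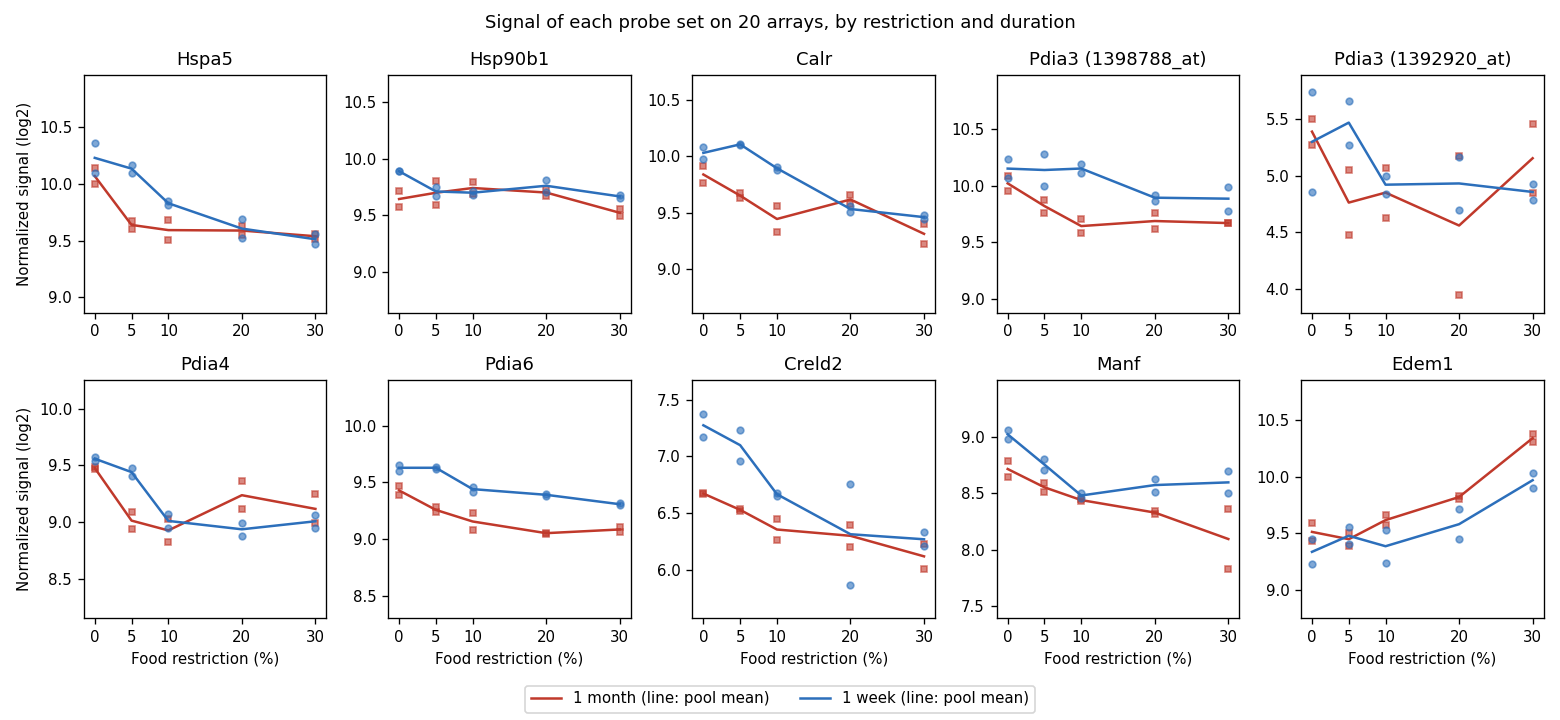
Normalized signal (log2, y axis) against restriction (%, x axis) for each of the 10 probe sets. Points are single arrays and lines join pool means, with 1 month in red squares and 1 week in blue circles. Edem1 is highest at 30% restriction in both durations, while Hspa5, Creld2 and Calr are lowest there.

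Hspa5 encodes BiP, the lumenal Hsp70 that binds unfolded chains and holds the stress sensors inactive. Its pools read 1075, 797, 773, 770.4 and 744 at 1 month and 1202, 1125, 911, 779.8 and 730.5 at 1 week. The 1 month series dropped at the 5% level and then stayed within a narrow range, whereas the 1 week series went down at each level. The 8 restricted pools averaged 829 ± 132, against 1139 ± 89.7 in the 2 control pools (SD). Both arrays lay below both control arrays of the same duration in 7 of the 8 restricted pools, the exception being the 5% pool at 1 week. Of all probe sets, 5.25% did so in at least 7 of 8 pools, and 6 of the 10 members did. The dose trend was -0.57 ± 0.118 (SE, limma adjusted p = 0.0235), a 1.49-fold lower signal.

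Hsp90b1 encodes Grp94, the lumenal Hsp90. Its pools read 799, 830.3, 855, 832 and 735 at 1 month and 947, 837, 831, 867 and 812 at 1 week. At 1 month the 5, 10 and 20% pools lay above the control and the 30% pool below it, and at 1 week all restricted pools lay below it. The restricted pools averaged 825 ± 40.0 (SD, 8 pools), against 873 ± 105 in the 2 control pools, so the groups overlapped. The dose trend was -0.13 ± 0.0764 (SE) and did not pass (limma adjusted p = 0.394).

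Calr encodes calreticulin, a calcium-binding lectin that holds newly made glycoproteins. Its pools read 915, 804, 697, 786 and 637 at 1 month and 1045, 1101, 951, 741 and 705 at 1 week. Both durations were lowest at 30%, and both arrays of the 5% pool at 1 week lay above their controls. In the other 7 restricted pools both arrays lay below. Calr fell by 0.55 ± 0.105 on the log2 scale in the dose trend (SE, limma adjusted p = 0.0170), a 1.46-fold lower signal.

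The protein disulfide isomerases make and rearrange disulfide bonds. Pdia6 read 689.7, 612, 570.3, 531 and 543 at 1 month and 792, 792, 695, 671 and 634 at 1 week. Its restricted pools averaged 631 ± 87.5 (SD, 8 pools), against 741 ± 72.4 in the 2 control pools, and both arrays lay below both controls in 7 of 8. Pdia6 fell by 0.33 ± 0.0773 on the log2 scale in the dose trend (SE, limma adjusted p = 0.0365).

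Pdia4, also called ERp72, read 712, 516, 486, 603 and 554 at 1 month and 754, 695, 515, 489 and 514 at 1 week. It was the 1 member whose 8 restricted pools all lay below both control pools, 547 ± 70.8 against 733 ± 29.6 (SD, n = 8 and 2). Of all probe sets tested, 6.75% had that order and 7.55% had all restricted pools above. Its pools were not lowest at the highest level, and the dose trend of -0.35 ± 0.163 did not pass (SE, limma adjusted p = 0.269).

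Pdia3, also called ERp57, works with calreticulin on glycoproteins. Its brighter probe set read 1039, 904, 800.1, 825 and 815 at 1 month and 1137, 1128, 1138, 952 and 946 at 1 week. In the 1 week series the 5 and 10% pools read close to the control, and the 20 and 30% pools lay lower. The dose trend was -0.30 ± 0.0836 (SE, limma adjusted p = 0.0668). The second probe set read between 23.6 and 44.3 in its 10 pools, and its trend was -0.35 ± 0.228 (SE, limma adjusted p = 0.455). Both estimates lay below 0 and neither passed.

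Creld2 encodes an endoplasmic reticulum protein with disulfide isomerase activity that stress induces in mouse and human cells. Its pools read 102, 92.2, 81.8, 78.7 and 69.4 at 1 month and 155, 137, 102, 79.5 and 77.0 at 1 week. Both series went down at each level. The 2 arrays of the 20% pool at 1 week differed most, by an SD of 0.63 on the log2 scale. The dose trend of -0.79 ± 0.146 had the largest fall of the set (SE, limma adjusted p = 0.0145). At 30% for 1 week the difference from the control pool was -1.01 on the log2 scale, the 1 value of the set past a 2-fold change with the arrays apart. In that pool 5.87% of all probe sets met this rule.

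Manf encodes a small secreted protein that stays in the endoplasmic reticulum bound to BiP and is induced by stress. Its pools read 419.8, 375, 347, 322 and 273 at 1 month and 519, 431, 357, 380.5 and 387 at 1 week. At 1 month the series went down at each level, and at 1 week it was lowest at 10%. Both arrays lay below both control arrays in all 8 restricted pools, as for Pdia4 and for 2.5% of all probe sets. Manf fell by 0.46 ± 0.113 on the log2 scale in the dose trend (SE, limma adjusted p = 0.0467).

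Edem1 encodes a lectin-like protein that extracts misfolded glycoproteins from folding and hands them to degradation. Its pools read 731, 699, 785, 905 and 1297 at 1 month and 647, 714, 669, 766 and 1003 at 1 week. The 30% pools stood above all others of their duration, while the 5 and 10% pools stayed near the controls. Both arrays lay above both control arrays in 3 of the 8 restricted pools, 30% and 20% at 1 month and 30% at 1 week. At least 3 such pools were found for 33.4% of all probe sets. Edem1 rose by 0.71 ± 0.104 on the log2 scale in the dose trend (SE, limma adjusted p = 0.0061).

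**Figure D2:**
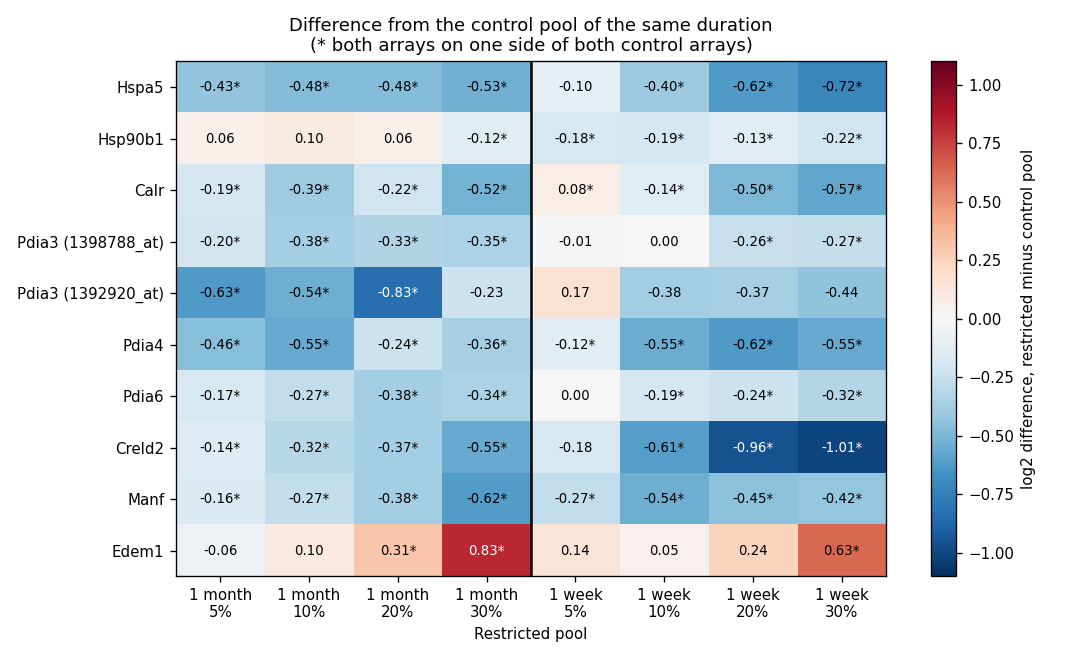
Log2 difference of each restricted pool from the control pool of the same duration, by probe set (rows) and restriction (columns), 1 month left and 1 week right. A star marks a pool whose 2 arrays both lie on one side of both control arrays; Manf and Pdia4 have a star in all 8 pools.

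The calls rested on few pools. Without the 1 week control pool, or without the 30% pool at 1 week, the dose trend called Edem1 only, 1 probe set in place of 6. Calls among all probe sets also dropped, to 1.33% without that control pool and 0.693% without that 30% pool, against 3.76%. Without the 1 month control pool it called 2, Creld2 and Edem1, with 1.02% of all. Without the 5% pool (2.01% of all called) or the 20% pool at 1 week (1.81%), Hspa5, Pdia6 and Manf lost their calls. Manf alone lost its call without the 5% (4.93% of all called), 10% (3.99%) or 30% pool (3.99%) at 1 month. Manf and Pdia6 lost theirs without the 20% pool at 1 month (1.96%). Edem1 kept its call without any 1 of the 10 pools. Without both 30% pools together, a choice made after the data were seen, 0 of the 10 and 0.41% of all were called. Every estimate of the 10 kept its sign.

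The ratio of the 3′ to the 5′ GAPDH probe sets, a measure of RNA integrity, ran from 1.27 to 1.67 in restricted pools and from 1.51 to 1.53 in control pools. The same ratio of actin ran from 2.23 to 3.08 in restricted pools and from 2.74 to 2.81 in control pools. Once the model took in the GAPDH ratio, 0 of the 10 probe sets and 0 of all 9520 passed in the dose trend, while all 10 estimates kept their sign. Hspa5 was then at -0.71 ± 0.162 (SE, limma adjusted p = 0.0928) and Edem1 at 0.59 ± 0.144 (SE, limma adjusted p = 0.0993). The part of the ratio in these changes was not tested.

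**Figure D3:**
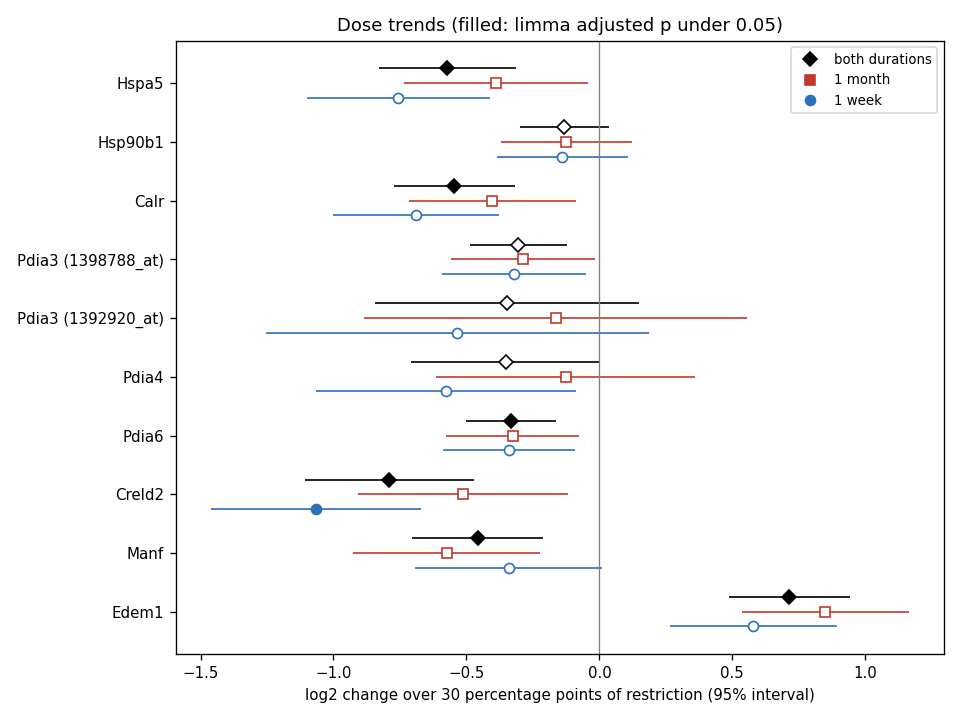
Fitted log2 change over 30 percentage points of restriction (x axis) for each probe set, over both durations, at 1 month and at 1 week. Bars are 95% intervals and filled points have an adjusted p under 0.05. Edem1 lies right of 0 and the other 9 probe sets left of 0 in the fit over both durations.

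The restriction step compared the 8 restricted pools with the 2 control pools whatever the level. Here 5.27% of all probe sets passed, and 1 of the 10 did so: Hspa5 fell by 0.47 ± 0.121 on the log2 scale (SE, limma adjusted p = 0.0412). Pdia4 was at -0.43 ± 0.119 (SE, limma adjusted p = 0.0558) and Manf at -0.39 ± 0.109 (SE, limma adjusted p = 0.0582). Edem1 was at 0.28 ± 0.187 (SE, limma adjusted p = 0.463), its restricted pools at 855 ± 211 against 689 ± 59.4 in control pools (SD, n = 8 and 2). The member median was -0.35, against 0.00225 for all probe sets. Without any 1 pool other than the 5% or the 30% pool at 1 week, Hspa5 lost its call. In those fits 0.651% to 5.34% of all probe sets passed. Without the 5% pool at 1 week the step called 5, adding Pdia4, Pdia6, Creld2 and Manf, with 9.33% of all. Without the 5% pool at 1 month it called Manf, with 4.66% of all.

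By level, with both durations pooled, 0 of the 10 passed at 5% restriction, where 0.452% of all probe sets did. There 0 of the 10 had an unadjusted p under 0.05 in limma, while 936 of all probe sets did. At 10%, 0 of the 10 passed against 2.18% of all. An unadjusted p under 0.05 in limma was found for 5 of the 10 and for 1347 of all probe sets. At 20%, 1 passed against 3.8% of all, and Hspa5 was at -0.55 ± 0.122 (SE, limma adjusted p = 0.0348). At this level 9 of the 10 and 1558 of all probe sets had an unadjusted p under 0.05 in limma. At 30%, 5 passed, 4 lower and 1 higher, against 4.53% of all, 2.08% lower and 2.45% higher. Here 8 of the 10 and 1746 of all probe sets had an unadjusted p under 0.05 in limma. Hspa5 fell by 0.62, Calr by 0.55, Creld2 by 0.78 and Manf by 0.52 on the log2 scale, with limma adjusted p-values of 0.0176 for Hspa5, 0.0404 for Calr, 0.0295 for Creld2 and 0.0357 for Manf. Edem1 rose by 0.73 ± 0.103 (SE, limma adjusted p = 0.00353). Its estimates at the lower levels were 0.04 at 5%, 0.08 at 10% and 0.28 at 20%, while those of Hspa5 were -0.26, -0.44 and -0.55. The 4 levels share their control pools. Without the 1 month control pool 0 were called at 30%, and without the 1 week control pool or the 30% pool at 1 week only Edem1 was. Of all probe sets, 1.27% passed without the 1 month control pool, 2.01% without the 1 week control pool and 1.12% without that 30% pool. Without the 30% pool at 1 month 2 were called, Hspa5 and Edem1, with 3.1% of all. Without the 20% pool at 1 month (3.51% of all called) or at 1 week (3.45%) Manf lost its call. The Hspa5 call at 20% was lost without either control pool or any 1 of the 10% and 20% pools. In those fits 0.231% to 3.07% of all probe sets passed at 20%. Without a 5% pool of either duration the 20% level called 2, with Creld2, and the 10% level called 2, Hspa5 and Pdia4. Of all, 4.96% then passed at 20% without the 1 month pool and 4.93% without the 1 week pool. At 10% these shares were 3.8% and 3.84%.

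For the 2 durations, 1 month minus 1 week at matched diets, 0 of the 10 passed in limma, with an unadjusted p under 0.05 for 6 of them. Among all 9520 probe sets, 1021 had an unadjusted p under 0.05 in limma, and 0.336% passed after adjustment. Pdia6 averaged 589 ± 64.2 at 1 month against 717 ± 72.1 at 1 week (SD, n = 5 each), a difference of -0.28 ± 0.0555 on the log2 scale (SE, limma adjusted p = 0.0558). The brighter Pdia3 probe set averaged 877 ± 99.3 at 1 month against 1060.2 ± 102 at 1 week (SD, n = 5 each), with limma adjusted p = 0.0863. Pdia3 by that probe set, Pdia6, Creld2 and Manf had lower values at 1 month at all 5 diet levels, controls included. Of all probe sets, 5.51% were lower at 1 month at all 5 levels. The 1 month rats were also older, and duration and age cannot be told apart.

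Fitted within 1 month, 0 of the 10 dose trends passed, against 0.0315% of all. Edem1 was at 0.85 ± 0.143 (SE, limma adjusted p = 0.0814) and Manf at -0.57 ± 0.160 (SE, limma adjusted p = 0.227). Within 1 week, 1 of the 10 passed, against 0.714% of all: Creld2 fell by 1.07 ± 0.180 on the log2 scale (SE, limma adjusted p = 0.0326). It lost this call without the control, 5, 20 or 30% pool at 1 week or the 20% pool at 1 month. In those fits 0% to 0.273% of all probe sets passed. Without the 1 month control pool 4 were called, Creld2, Hspa5, Calr and Edem1, with 4.39% of all. Without the 5% pool at 1 month 2 were called, Creld2 and Hspa5, with 1.1% of all. Hspa5 was at -0.76 ± 0.157 at 1 week and -0.39 at 1 month, and Calr at -0.69 ± 0.142 at 1 week and -0.40 at 1 month. The difference between the 2 slopes passed for 0 of the 10 in limma, with 0 of them at an unadjusted p under 0.05. Among all probe sets it passed for 0 (0%), with 525 at an unadjusted p under 0.05. The member with the smallest p was Creld2, whose slope, 1 month minus 1 week, differed by 0.55 ± 0.254 (SE, limma adjusted p = 0.914).

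The rest of the endoplasmic reticulum machinery was read through 3 lists, beside a dose trend in which 1.8% of all probe sets rose and 1.96% fell. Of 31 tested genes of other folding factors, 0 rose and 0 fell in the dose trend, with a median log2 change of -0.03. The folding gene with the smallest p was Dnajc3, a cochaperone of BiP, at -0.34 ± 0.0948 (SE, limma adjusted p = 0.0672). Hyou1, a lumenal chaperone that serves as exchange factor of BiP, was at -0.71 ± 0.223 (SE, limma adjusted p = 0.101). Ppib, a prolyl isomerase, was at -0.29, and Lman1, the cargo receptor ERGIC-53, was at 0.43. Of 33 genes of degradation and of transport into the organelle, 0 rose and 0 fell, with a median of -0.10. Vcp, the ATPase that pulls proteins out for degradation, was at -0.30 ± 0.0782 (SE, limma adjusted p = 0.0528). Sel1l, the scaffold of the Hrd1 ubiquitin ligase, was at 0.38 ± 0.110 (SE, limma adjusted p = 0.0777), and Derl1, a membrane protein of the same route, was at -0.30. Dad1, a subunit of the oligosaccharyltransferase, was at -0.28. Herpud1, a stress-induced part of the Hrd1 complex named after its values were seen, was at 0.65 ± 0.238 (SE, limma adjusted p = 0.161).

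Of 17 tested sensors and transcription factors of the unfolded protein response, 0 rose and 0 fell, against 1.8% and 1.96% of all probe sets. Their median was 0.02. Nupr1, a stress-induced regulator, was at 0.63 ± 0.285 (SE, limma adjusted p = 0.254). Eif2ak3, which encodes PERK, was at -0.30, Atf4, the factor translated under PERK, at -0.21, and Ddit3, the stress factor CHOP, at 0.31, with limma adjusted p-values of 0.436 for Eif2ak3, 0.451 for Atf4 and 0.458 for Ddit3. Xbp1, named after its values were seen, was at 0.02. Splicing of Xbp1 and processing of the ATF6 protein were not measured.

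In the restriction step, 2 of the 31 folding genes fell, against 2.11% of all probe sets falling, and 0 of the other 2 lists passed. Hyou1 fell by 0.75 ± 0.164 on the log2 scale (SE, limma adjusted p = 0.0212). Its pools read 72.6, 52.1, 56.4, 36.3 and 38.1 at 1 month and 57.4, 31.0, 35.2, 31.3 and 34.2 at 1 week from 0 to 30%, the control being highest in both. Uggt1, the enzyme that tags unfolded glycoproteins for another round with calreticulin, fell by 0.74 ± 0.180 (SE, limma adjusted p = 0.0326). Its pools read 46.0, 28.9, 28.5, 30.4 and 30.0 at 1 month and 54.7, 36.6, 21.8, 36.8 and 30.8 at 1 week, again highest in the controls.

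**Figure D4:**
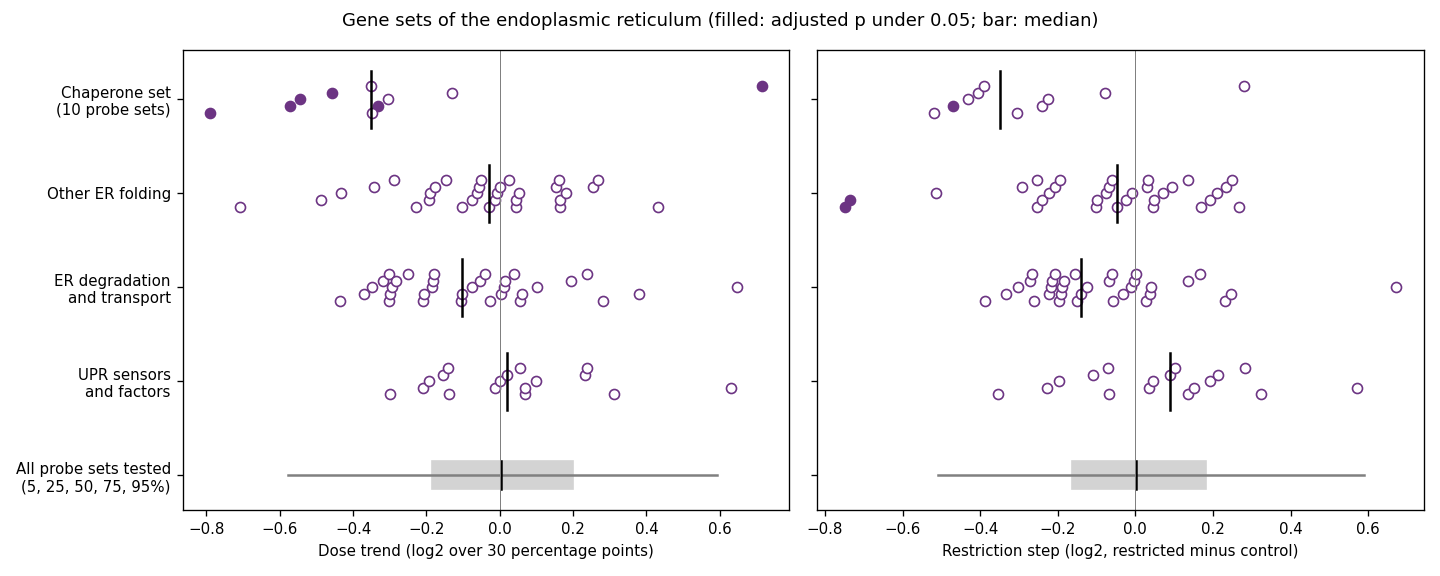
Log2 estimates (x axis) of the chaperone set, of the 3 other endoplasmic reticulum lists and, as percentiles 5, 25, 50, 75 and 95, of all 9520 probe sets, in the dose trend and in the restriction step. The median of the chaperone set is -0.35 in both comparisons, and the medians of the other lists lie between -0.14 and 0.09.

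Genes other than members that hold ERSE in the same window gave a further description, chosen after the members' promoters had been read. Of 17 such genes, 10 were tested and 0 passed in the dose trend, where 3.76% of all probe sets passed. Their median log2 change was -0.13. Dnajc3 belongs to them, as do Xbp1 and Canx, the membrane-bound partner of calreticulin, at 0.05. Of the 4 members with ERSE, Hspa5, Calr and Creld2 fell and Hsp90b1 did not pass, where 1.96% of all probe sets fell. Of the members searched without a match, Edem1 rose and Pdia4, at -0.35, did not pass. Promoters of Pdia3, Pdia6 and Manf were not at hand. A part of ERSE in these changes was not tested.

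Over the 10 pools, log2 signals of the 8 genes other than Edem1 correlated with each other at a median Pearson r of 0.776, from 0.251 to 0.944 over 28 pairs. Edem1 correlated with each of them at a median of -0.711, from -0.766 to -0.283. These are descriptions over pools that share the same diet levels and 1 normalization. Among 7047 other genes, the profiles most like the mean of the 8 were those of Cavin3 (r = 0.980), Commd10 (r = 0.979), Lrrc59 (r = 0.977) and Ube2n (r = 0.975), followed by Pdcl3, Pklr, Ppih and Fdps at 0.974 to 0.965. Most like Edem1 were Neu2 (r = 0.949), Fkbp5 (r = 0.934), Gna11 (r = 0.905) and Akr1e2 (r = 0.902).

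Markers of liver cell types were read beside these values. The summed signal of 7 hepatocyte markers ran from 35487 to 37426 in restricted pools and from 35986 to 36576 in control pools. Quantile normalization makes the brightest signals nearly alike on all arrays, so this sum cannot show whether hepatocyte content changed. In the dose trend 1 of the 7, Cyp2e1, rose and 6 did not pass, with 4 of the estimates below 0. Of 4 endothelial markers, Ehd3 rose by 1.17 and 3 did not pass, with 0 of the estimates below 0. Kdr, another of them, rose by 0.60 in the restriction step (limma adjusted p = 0.00899). Their sum ran from 254 to 329 in restricted pools and from 196 to 237 in control pools. Of 5 Kupffer cell and macrophage markers, Cd14 rose by 1.01 and 4 did not pass, with 2 of the estimates below 0 and a median of 0.17. Their sum ran from 655 to 819 in restricted pools and from 782 to 794 in control pools. The single tested bile duct marker, Epcam, ran from 24.7 to 44.1 in restricted pools and from 44.4 to 46.3 in control pools. It did not pass in the dose trend or the restriction step. Of single probe sets, 6.75% had all restricted pools below both control pools and 7.55% had all above. In the duration comparison Col3a1, a stellate cell and fibroblast marker, was lower at 1 month, and the sum of that list's 8 markers ran from 390.4 to 449 at 1 month and from 547 to 621 at 1 week. The sum of 2 red cell markers ran from 997 to 1173 at 1 month and from 1281 to 2106 at 1 week, Hbb being lower. Hbb also fell in the dose trend at 1 week, by 0.76 on the log2 scale (limma adjusted p = 0.0331), where the median of both markers was -1.08 and Creld2 fell by 1.07. Of the T cell list 1 marker was tested and 0 passed, and of the B and plasma cell list 0 could be tested. The part of these cells in the chaperone changes was not tested.

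**Figure D5:**
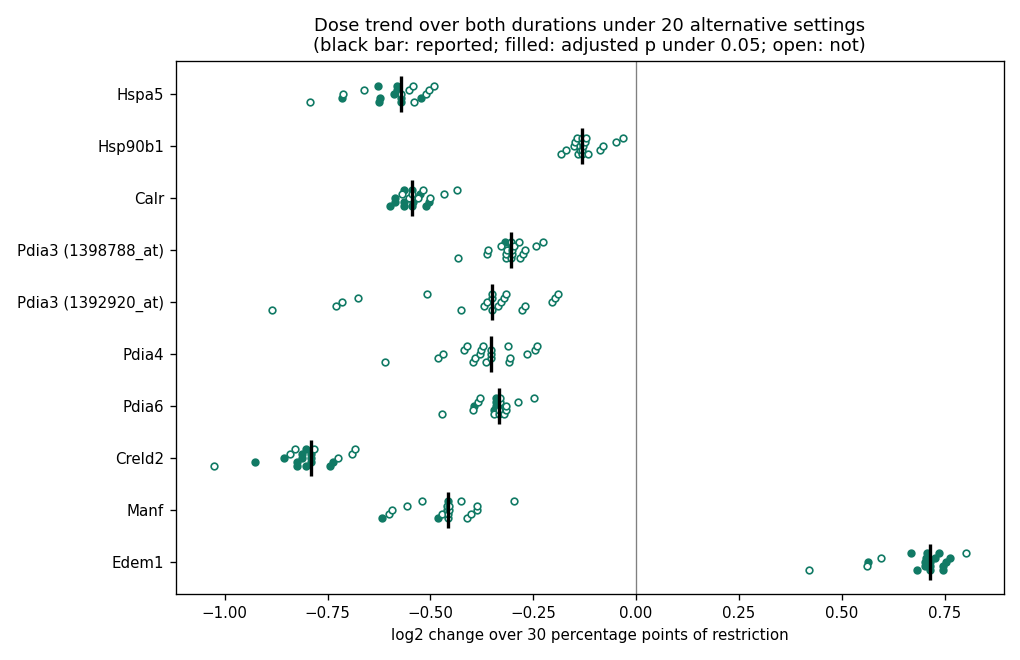
Log2 dose trend (x axis) of each of the 10 probe sets under 20 other settings, with a black bar for the reported value and filled points where the adjusted p stays under 0.05. Every probe set keeps its sign in all 20, and Edem1 passes in 16 of them and Creld2 in 13.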

How the data were processed

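The deposited intensity values, 1 per probe set, were made by the authors with MAS5, per the submitters' processing notes. Their 2% trimmed mean differed between arrays, 38.8 at the lowest and 99.6 at the highest of 20. They were therefore quantile normalized between arrays. The 32 values of 0 were set to the array's smallest positive value, signals were taken to log2, and the upper 60% of 15866 probe sets by mean signal, 9520, were tested. Both arrays of a pool read the same RNA and were averaged, so n = 10 pools. limma 3.58.1 (R 4.3.3, lmFit and eBayes with a variance trend) was used, with Benjamini-Hochberg adjustment over all 9520 and a threshold of 0.05, and was tested on simulated data. Dose trends included duration as a term. Array numbers do not pair pools: deviations of same-numbered arrays correlated between -0.0473 and 0.121 over 45 pairs of pools. Of the 20 arrays, 9 correlated best with the other array of their own pool. Correlations ran from 0.948 to 0.971 within pools and from 0.916 to 0.970 between pools. The number of pools, 1 per combination, limits precision.

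Members, lists and the rules for naming genes were chosen with earlier results of these data known. All members were named, as were the genes of the other lists that passed, or up to 4 of smallest p per list in the dose trend, and the most correlated genes (8 for the chaperone mean, 4 for Edem1). Gene names came from the platform annotation, and 12754 symbols were matched to the RefSeq gene table with 0 changed. Promoters came from RefSeq (GRCr8); the array names no build. Detection calls were not used here. Alternatives were the deposited values, median centring, no filter, no variance trend, the GAPDH ratio as covariate, single arrays with a replicate block, and leaving out arrays or pools; leaving out both 30% pools and the actin ratio were added after seeing the data.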

Additional observations from a re-analysis of the deposited data

How the results depend on the processing

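The sign of the dose trend was the same in all 20 alternatives for each of the 10 probe sets, but the calls were not. The reported counts of members called were 6 in the dose trend, 1 in the restriction step, 1 in the dose trend at 1 week, 1 at the 20% level, 5 at the 30% level and 0 in the other comparisons. With the values as deposited, the counts were 0 in the dose trend (58 of all probe sets, against 358) and 0 in the step (341). They were also 0 at 1 week (43 of all), 0 at 20% (630) and 0 at 30% (261). The median log2 estimate of all probe sets was then 0.113 in the dose trend, 0.250 in the step and 0.187 in the duration comparison. As reported, these medians were 0.00339, 0.00225 and 0.0036. With the deposited values, signs in other comparisons were not all kept. Of the 10 estimates, 5 kept their sign at 5%, 6 at 10%, 7 at 20% and 10 at 30%. In the step 9 kept it, and in the duration comparison 6 did. At 5% the member median was then 0.00844, against 0.174 for all probe sets. With median centring, 4 were called in the dose trend (143 of all, 27 higher and 116 lower, against 171 higher and 187 lower). Counts were 0 in the step (326 of all), 0 at 1 week (48), 0 at 20% (202) and 1 at 30% (250). With no filter, 4 were called in the dose trend (272 of all 15866), 0 in the step (428), 0 at 20% (290) and 4 at 30% (355). With no variance trend, 2 were called in the dose trend (108 of all) and 0 in the step (192). Counts were 0 at 1 week (0 of all), 0 at 20% (0) and 0 at 30% (107). With the GAPDH ratio, 0 were called in the dose trend (0 of all) and 0 in the step (424). Counts were 0 at 1 week (1 of all), 0 at 20% (214) and 2 at 30% (205). With the actin ratio, 0 were called in the dose trend (8 of all) and 0 in the step (490). Counts were 0 at 1 week (0 of all), 0 at 20% (204) and 0 at 30% (1). Without both 30% pools, 0 were called in the dose trend (39 of all), 0 in the step (449) and 0 at 1 week (0). The causes were not tested.

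Leaving out 1 pool or 1 array of each pool gave a range of calls. Members called ran from 1 to 6 in the dose trend, 0 to 5 in the step and 0 to 4 at 1 week. They ran from 0 to 2 at 10%, 0 to 2 at 20% and 0 to 6 at 30%, and were 0 in the others. All probe sets called ran from 66 to 469 in the dose trend, 62 to 888 in the step and 0 to 418 at 1 week. At 10% they ran from 18 to 366, at 20% from 22 to 472 and at 30% from 107 to 565. The replicate block was fitted on single arrays with the pool as a random term. It gave 7 in the dose trend (818 of all), 4 in the step (884) and 3 in the duration comparison (197). It gave 2 at 1 month (157 of all), 5 at 1 week (553), 4 at 10% (674), 8 at 20% (885) and 8 at 30% (1002). As reported, 68 of all were called at 1 week, 362 at 20% and 431 at 30%, so this setting called more throughout. The array numbers did not pair the pools.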
